A study of Mus musculus with 4 samples.

Results

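Memory-like CD8 T cells of the mouse peritoneal cavity are described here from 449 cell barcodes out of 32345 that passed quality filters in 2 single-cell expression libraries. A barcode was taken as a member when it held at least 2 unique molecular identifiers (UMIs, counted transcript molecules) of the T-cell receptor partner genes Cd3e, Cd3d and Cd3g together, at least 2 of the co-receptor genes Cd8a and Cd8b1 together, and none of Cd4. It could hold at most 1 UMI of the naive T-cell genes Lef1, Dapl1 and Igfbp4, at most 1 of the natural killer (NK) receptor genes Klra1, Klra7, Klrb1c and Ncr1, and at most 2 of the B-cell genes Cd79a, Cd79b and Ms4a1. Kept barcodes had at least 200 detected genes and under 10% mitochondrial UMIs. The rule found 301 members among 22327 kept barcodes of the knockout (KO) library and 148 among 10018 of the wild-type (WT) library. The levels of the rule's own genes chose these cells and are given only as a description.

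The study profiled immune cells of peritoneal lavage from KO and WT mice, sorted by flow cytometry for CD45, the surface protein common to leukocytes. High-fat feeding began when the mice were 4 weeks old and lasted 3 months in both genotypes, and no group on another diet was analysed here. Each genotype had 1 droplet gene expression library and 1 B-cell receptor (BCR) library. Strain, sex and the number of mice behind each library are not given in the sources used here, so the spread between mice is unknown, no test between genotypes was made, and every interval below covers counting error only.

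CD8 T cells recognise peptides on MHC class I and kill target cells by releasing perforin and granzymes. After activation by antigen, or after expansion on homeostatic cytokines without known exposure, some of them persist as memory cells that keep effector transcripts ready and depend on interleukin-7 and interleukin-15. Memory CD8 cells differ in whether they recirculate through lymph nodes, using receptors such as CCR7, or patrol and stay in tissues, where chemokine receptors such as CXCR3 and CXCR6 guide them.

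The members held 919274 UMIs in the KO library and 687818 in the WT library. A KO member had a median of 2611 UMIs and 1261 genes, and a WT member 4402.5 UMIs and 1732 genes, so the libraries differed in depth per cell as well as in genotype. Of the barcode sequences, 293 occurred in both libraries, and 0 of these were members in both. Assembled BCR contigs were attached to 2 of the 301 KO members and to 1 of the 148 WT members. The doublet caller Scrublet was run at a rate set by the number of barcodes, which was higher for the KO library. It marked 17.2% of all scored KO barcodes and 7.87% of all scored WT barcodes. Among members it marked 7 in KO and 0 in WT, and they were kept in the main values.

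The label has 3 marker genes that the rule did not use. They were chosen with earlier results of these data known, so their presence describes the class and is no independent check. At an equal depth of 1500 UMIs per barcode, which left out 46 KO and 8 WT members, a UMI of Gzmk (granzyme K) was found in 20.8% (16.0 to 26.3) of KO members and 18.6% (12.5 to 26.0) of WT members. B-cell barcodes, which should lack it, carried Gzmk in 0.0324% of KO and 0 of 6105 WT barcodes (allowing a share of up to 0.0491%). The share of members with Gzmk before thinning was 32.9% in KO and 34.5% in WT. Ctla2a, which encodes a cathepsin inhibitor of activated T cells, was found in 53.7% of KO and 46.4% of WT members, against 0.728% and 0.213% of B-cell barcodes. Ly6c2, a surface antigen of memory CD8 cells and monocytes, was found in 56.9% of KO and 62.1% of WT members, against 2.11% and 0.966% of B-cell barcodes. Naive-like CD8 barcodes held Gzmk in 5.56% of KO and 7.64% of WT, Ctla2a in 27.8% and 25%, and Ly6c2 in 47.5% (39.6 to 55.5) and 43.8% (35.5 to 52.3). Memory-like CD4 barcodes held Gzmk in 4.25% of KO and 3.60% of WT, Ctla2a in 21.5% and 17.8%, and Ly6c2 in 20.2% and 21.8%. All 3 shares of members were above those of B cells, which the rule itself left out. For Ly6c2 the intervals of members and naive-like CD8 barcodes overlapped in KO. The B-cell barcodes had a higher median depth than members, 3444 UMIs in KO and 6938 in WT.

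The defining markers Foxp3 and Trdc had few UMIs. The regulatory T-cell gene Foxp3 had 2 UMIs in KO members and 0 in WT members, and the gamma-delta T-cell gene Trdc had 7 and 6. The 5 gamma-delta genes summed to 35.9 CPM (UMIs scaled to a total of 1000000 over the members of a library) in KO and 53.8 CPM in WT, and the 3 regulatory T-cell genes to 27.2 CPM in KO and 37.8 CPM in WT. A gamma-delta UMI was found in 11 KO and 12 WT members, with 24.2% of these UMIs in KO and 48.6% in WT in 1 barcode each. A UMI of the regulatory T-cell genes was found in 17 KO and 14 WT members. Trav1, the alpha V gene of mucosal-associated invariant T cells, is described with the receptor V genes below.

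Members made up 1.35% (1.20 to 1.51, exact binomial 95% interval) of kept barcodes in KO and 1.48% (1.25 to 1.73) in WT, a KO to WT ratio of 0.913 (0.751 to 1.11). Among barcodes with CD3 transcripts they made up 9.44% (8.45 to 10.5) of 3188 in KO and 7.95% (6.76 to 9.27) of 1862 in WT, a ratio of 1.19 (0.984 to 1.43). Both intervals included 1. An upper limit on UMIs of naive genes lets more cells pass in a shallower library, whereas the minimum UMIs of CD3 and CD8 genes let fewer pass. The part of each in these shares was not tested. When every barcode was first thinned to 1500 UMIs, the members were 10.1% of CD3 barcodes in KO and 9.94% in WT, a ratio of 1.02 (0.845 to 1.23). As a share of all thinned barcodes the ratio was then 0.769 (0.631 to 0.936). With no UMI of the naive genes allowed at full depth, the members were 6.37% of CD3 barcodes in KO and 4.24% in WT, a ratio of 1.5 (1.17 to 1.93). As a share of kept barcodes the ratio was then 1.15. The size of the share difference therefore moved with depth and with the naive limit. Its direction changed only for kept barcodes with the naive limit.

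Levels of the genes below differed with the number of naive UMIs, though not in the same direction at every step. Ccl5, the chemokine gene typical of memory CD8 cells, was at 15112, 11266, 8799 and 3699 CPM in KO barcodes with 0, 1, 2 and 3 or more naive UMIs, and at 16795, 15310, 12912 and 3457 CPM in the WT barcodes. Gzmk was at 283, 150, 135 and 16.6 CPM in KO and at 233, 134, 153 and 40.7 CPM in WT. The lymph node homing receptor gene Ccr7 ran the other way, at 280, 426, 600 and 786 CPM in KO and at 328, 275, 562 and 773 CPM in WT. Barcodes with 2 naive UMIs, just outside the rule, numbered 62 in KO and 37 in WT, beside 98 KO and 69 WT members with 1. Gzmk was near the level of those members, whereas Ccr7 was higher just outside the rule, most of all in WT.

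Genes of the killing machinery were present in both libraries. Nkg7, a granule membrane protein needed for degranulation, was at 2072 CPM in KO and 1759 CPM in WT. Prf1, which encodes the pore-forming protein perforin, was at 64.2 (48.9 to 82.8) CPM in KO and 78.5 (59.0 to 102) CPM in WT. Fasl, the ligand of the death receptor Fas, was at 206 CPM in KO and 190 CPM in WT. Among the granzymes, the serine proteases of the granule, Gzma had 46 UMIs in KO and 25 UMIs in WT, and they were uneven, with 21.7% of the KO and 44.0% of the WT UMIs in 1 barcode each. Gzmb and Gzmm differed more between the libraries and are described with that comparison.

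**Figure D1:**
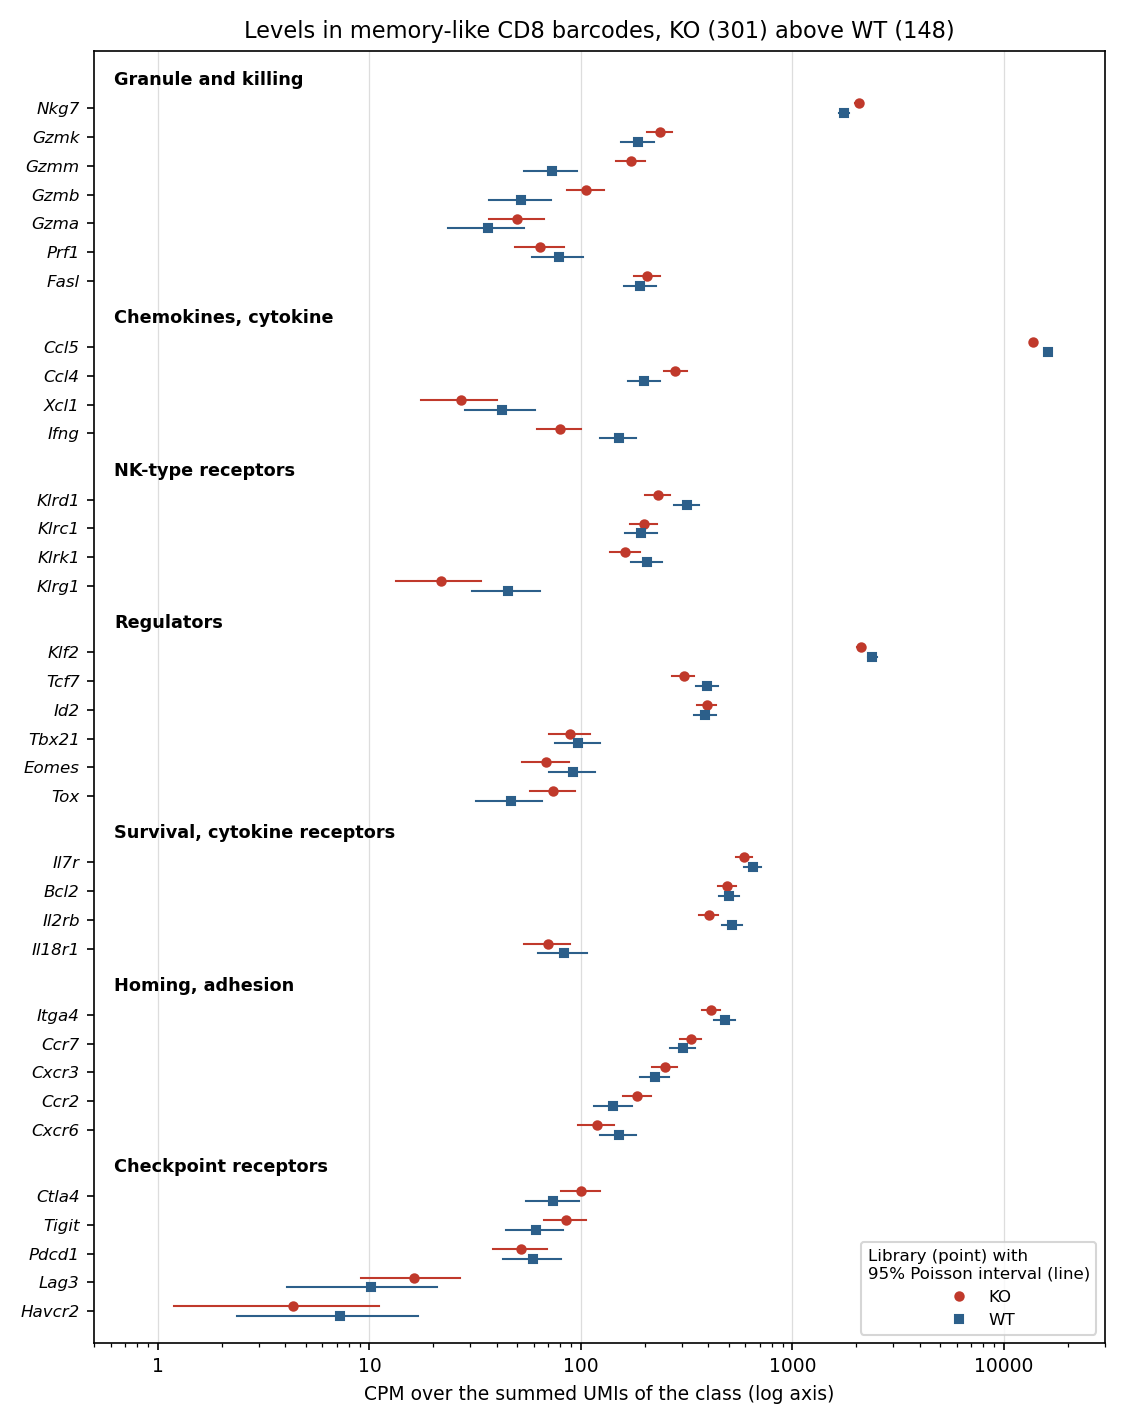
Level of 35 genes in memory-like CD8 barcodes as CPM over the summed UMIs of the class (log axis), with KO circles above WT squares and exact 95% Poisson intervals as lines, grouped by the role of each gene. Most pairs lie close together, while the KO point is right of the WT point for Gzmm (173 against 72.7 CPM) and Gzmb (105 against 52.3 CPM) and left of it for Ifng (79.4 against 151 CPM) and Klrg1 (21.8 against 45.1 CPM).

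Effector chemokine transcripts were carried by most cells or by few, depending on the gene. Ccl5 was at 13747 CPM in KO and 16087 CPM in WT, and at 1500 UMIs it was found in 84.7% of KO and 85.7% of WT members, against 2.66% and 0.672% of B-cell barcodes. Ccl4, an inflammatory chemokine, was found in 12.5% of KO and 16.4% of WT members at that depth, against 0.558% and 0.311% of B-cell barcodes. Xcl1, which attracts cross-presenting dendritic cells, was at 27.2 CPM in KO and 42.2 CPM in WT. Ccl4 had 16.3% of its KO UMIs in 1 barcode.

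The members carried receptors of the interleukin-7 and interleukin-15 pathways. Il7r was at 593 CPM in KO and 651 CPM in WT, and the survival gene Bcl2 at 492 CPM in KO and 502 CPM in WT. Il2rb, the beta chain shared by the interleukin-2 and interleukin-15 receptors, was at 404 CPM in KO and 519 CPM in WT, a ratio of 0.778 (0.671 to 0.902). The interleukin-18 receptor chains Il18r1 and Il18rap were at 69.6 and 62.0 CPM in KO and at 82.9 and 59.6 CPM in WT.

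Regulators of memory were present together with those of effector function. Tcf7, the transcription factor TCF-1 of self-renewing T cells, was at 306 CPM in KO and 395 CPM in WT, a ratio of 0.773 (0.652 to 0.917). Its partners in the effector and memory programme, Eomes and Tbx21 (T-bet), were at 68.5 and 89.2 CPM in KO and at 91.6 and 97.4 CPM in WT. Id2, an inhibitor of E proteins, was at 394 CPM in KO and 387 CPM in WT. Klf2, which maintains the egress receptor gene S1pr1, was at 2110 CPM in KO and 2383 CPM in WT, and S1pr1 itself at 172 CPM in KO and 179 CPM in WT.

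Homing receptors of both lymph nodes and tissues were present. Ccr7 was at 332 CPM in KO and 302 CPM in WT. Cxcr3, which follows interferon-induced chemokines, was at 249 CPM in KO and 224 CPM in WT, and Cxcr6 at 119 CPM in KO and 151 CPM in WT. Ccr2, a receptor for CCL2, was at 185 CPM in KO and 142 CPM in WT, and the integrin chain gene Itga4 at 412 CPM in KO and 478 CPM in WT. Cd44, the adhesion receptor that marks antigen-experienced cells, was at 97.9 CPM in KO and 135 CPM in WT, a ratio of 0.724 (0.536 to 0.978). None of these homing and adhesion genes was called between the libraries.

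Genes of tissue residency differed in level among themselves. A UMI of the 15 genes on that list was found in 86.7% of KO and 94.6% of WT members, and 7 of the 15 averaged 50 CPM or more. Cd69, an early activation antigen that also marks resident cells, was at 220 CPM in KO and 240 CPM in WT, and at 1500 UMIs it was found in 24.3% of KO and 28.6% of WT members, against 29.3% and 25.1% of B-cell barcodes. Itgae, which encodes the CD103 integrin of epithelial resident cells, had 1 UMI in KO and 2 UMIs in WT. The collagen receptor gene Itga1 had 9 UMIs in KO and 14 in WT, and Cx3cr1, a marker of terminal effector cells, had 8 in KO and 12 in WT. Klrg1, another marker of terminal effector cells, was at 21.8 CPM in KO and 45.1 CPM in WT, a ratio of 0.483 (0.261 to 0.874). Among checkpoint receptors, Lag3 had 15 UMIs in KO and 7 in WT and Havcr2 (TIM-3) 4 and 5, whereas Pdcd1 (PD-1) was at 52.2 CPM in KO and 59.6 CPM in WT.

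Members with Cxcr6 held less Ccr7 and more S100a4 than members without it in both libraries. To describe this, members without transcripts of antigen-presenting cells (defined below) were split by whether they held a UMI of Cxcr6, a chemokine receptor of tissue memory cells, a split chosen after the data were seen. There were 58 members with and 222 without Cxcr6 in KO, and 46 with and 101 without in WT. Ccr7 in cells with Cxcr6 was 0.281 (0.175 to 0.431) times that in cells without it in KO and 0.254 (0.163 to 0.383) times in WT. S100a4, a calcium-binding protein of memory and effector cells, was 2.86 (2.10 to 3.89) times as high in KO and 3.52 (2.67 to 4.68) times in WT, and Bhlhe40, a transcription factor of tissue memory cells, 1.82 and 1.51 times. Ccr2 was 2.43 (1.68 to 3.49) times as high in KO and 1.21 (0.769 to 1.87) times in WT, and Cxcr3 1.30 (0.955 to 1.75) and 0.969 (0.685 to 1.36) times. Cells with Cxcr6 had the higher median UMI count, 2830 against 2526 in KO and 4750 against 4067 in WT. At an equal depth of 1500 UMIs, Ccr7 was found in 20.6% of the 34 KO members with Cxcr6 against 30.3% of the rest, and in 4.76% of the 21 WT members with it against 33.1% of the rest.

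A second split, by Ly6c2, followed the NK-type receptors. It was also chosen after the data were seen. Klrc1, the NKG2A inhibitory chain that pairs with CD94, was 3.71 (2.34 to 6.17) times as high in the 170 KO members with Ly6c2 as in the 110 without, and 4.18 (2.20 to 8.94) times in the 103 WT members with it as in the 44 without. Its partner Klrd1 (CD94) was at 1.58 (1.13 to 2.24) times in KO and 2.57 (1.69 to 4.08) times in WT, and the activating receptor gene Klrk1 (NKG2D) at 1.71 and 2.04 times. Il7r was 1.52 times as high in KO and 1.40 times in WT. The checkpoint receptor gene Tigit was lower with Ly6c2, at 0.567 (0.350 to 0.921) times in KO and 0.412 (0.215 to 0.80) times in WT. Gzmk did not follow the same direction, at 0.613 (0.459 to 0.820) times in KO and 3.01 (1.69 to 5.82) times in WT. The difference between the libraries in these splits was not tested.

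Set beside the memory-like CD4 barcodes of the same library, which met the same limits with Cd4 in place of CD8 (591 in KO and 448 in WT), the members held more UMIs of some granule, NK receptor and chemokine genes and fewer of the costimulation genes Tnfrsf4 and Cd40lg. A gene was called when it reached 50 CPM in either group and its ratio interval lay wholly above 2, or below 0.5, in both libraries. Of 3036 genes tested, 24 (0.791%) were called higher and 23 (0.758%) lower. Cd8a and Cd8b1 among the higher and Cd4 among the lower were fixed by the rule. Without the rule's genes and the gene classes left out of the ranking, 19 were higher and 21 lower. The groups were chosen from the same cells by CD8 and CD4, so these differences describe the classes and support nothing further.

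Klrc1 was at 198 CPM in KO members and 1.75 CPM in KO CD4 cells, and at 193 and 3.36 CPM in the WT library. Ccl4 was 120 (46.1 to 442) times as high in members as in CD4 cells in KO and 34.6 (19.2 to 68.7) times in WT. Gzmm, which encodes granzyme M, was 26.9 (14.6 to 55.0) times as high in KO and 50.6 (16.3 to 253) times in WT. Eomes, a T-box regulator of memory CD8 and NK cells, was 19.5 (8.49 to 55.2) times as high in KO and 95.5 (25.4 to 806) times in WT. Prf1, Ccl5, Klrd1, Gzmk, the granzyme-activation regulator Cst7 and Ctla2b completed the 10 highest, at 4.46 to 15.7 times in KO and 5.35 to 32.8 times in WT. Fasl, Gzmb and Xcl1 were not called. Without the antigen-presenting barcodes in either group, Ccl4 was 328 (58.1 to 13019) times as high in KO and 55.4 (26.2 to 140) times in WT.

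On the lower side, Tnfrsf4, the costimulatory receptor OX40, was at 2.18 CPM in KO members and 260 CPM in KO CD4 cells, and at 2.91 and 220 CPM in the WT library. Cd40lg, the ligand through which helper cells activate B cells, was at 4.35 and 122 CPM in KO and at 10.2 and 153 CPM in WT. Izumo1r (folate receptor 4) and the regulatory T-cell factor gene Ikzf2 (Helios) were also among the 5 lowest, together with Ly6c1, but Izumo1r and Ikzf2 ranked 6 and 8 without the antigen-presenting barcodes. Ly6c1 is a near-identical neighbour of Ly6c2, so reads could be split between them, and the 1 UMI of Ly6c1 in members of either library is uncertain.

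Fewer genes were called against naive-like CD8 barcodes, which differ from the members by holding 2 or more naive UMIs (166 in KO and 144 in WT). They held 657758 UMIs in KO and 903329 in WT, against 1710006 and 2086209 in memory-like CD4 barcodes, so calls were harder to reach. Of 2839 genes tested, 7 (0.247%) were called higher in members and 3 (0.106%) lower, and the 3 were the rule's own Lef1, Dapl1 and Igfbp4. Rora, a nuclear receptor of effector and memory cells, was 4.35 (2.35 to 8.81) times as high in members in KO and 4.66 (2.81 to 8.09) times in WT. Bhlhe40 was at 3.48 and 3.34 times, Fasl at 3.14 and 3.02 times, Gzmk at 3.98 and 2.76 times, Ccl4 at 9.19 and 3.05 times and Ccl5 at 2.48 and 2.82 times. The seventh gene was Cd74, the class II invariant chain, which was at 2.19 times in KO and 9.54 times in WT and is not called once barcodes with antigen-presenting transcripts are left out. Then 6 genes (0.213%) were higher and 3 (0.107%) lower of 2815. Nkg7 was 1.65 and 1.56 times as high in members, and Ly6c2 1.22 and 1.46 times, both under the limit of 2. NK-receptor CD8 barcodes numbered 9 in KO and 2 in WT and were too few to compare.

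**Figure D2:**
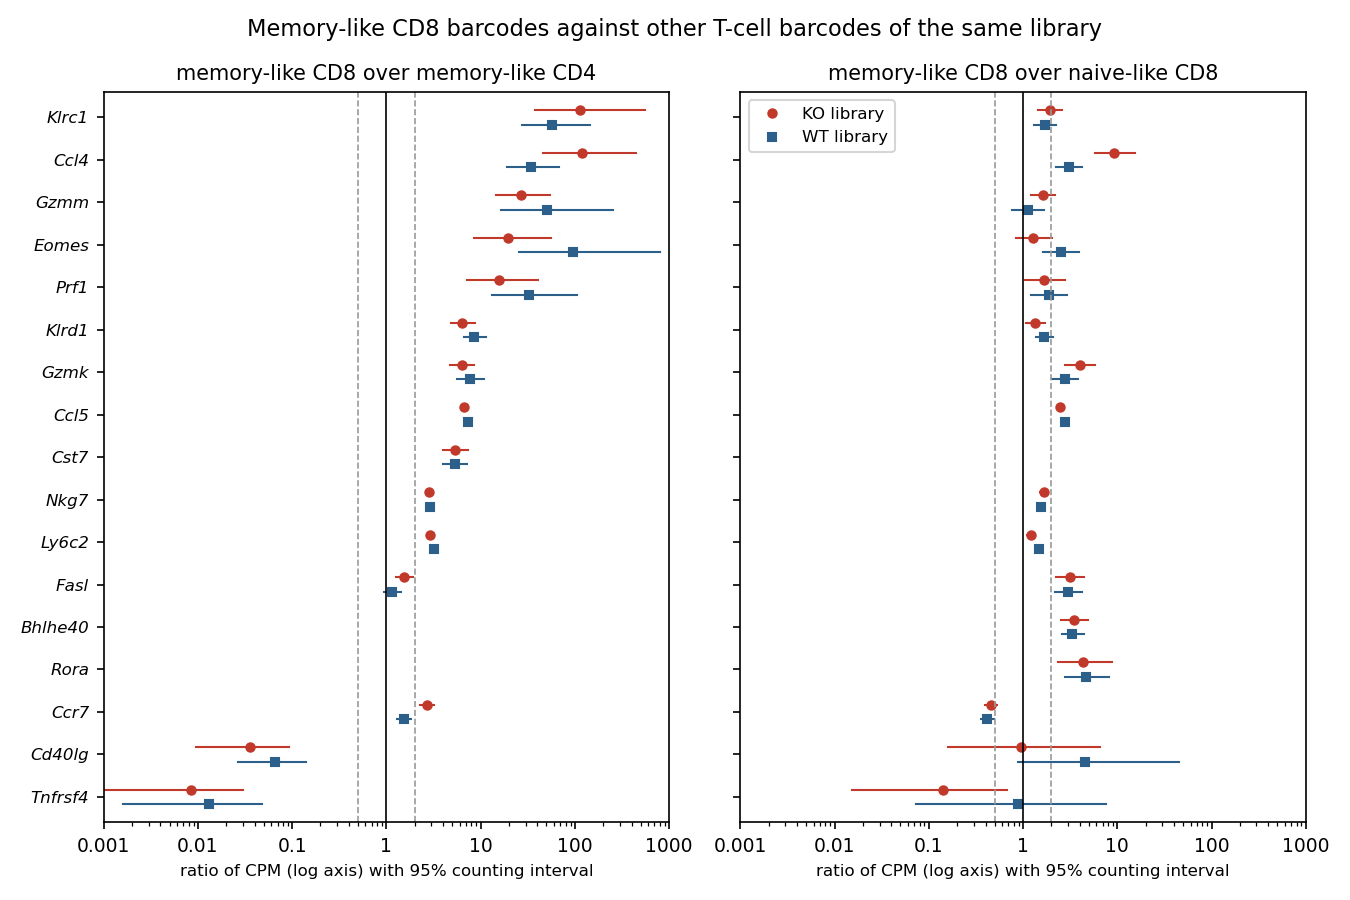
Ratio of CPM (log axis) in memory-like CD8 barcodes over memory-like CD4 barcodes (left panel) and over naive-like CD8 barcodes (right panel) of the same library for 17 genes, KO circles above WT squares, with exact 95% counting intervals as lines and the limits of 0.5 and 2 dashed. NK receptor and granule genes lie far right of 1 against CD4 cells (Klrc1 at 113 in KO and 57.6 in WT) and nearer 1 against naive-like CD8 cells, where Ccr7 is at 0.461 in KO and 0.418 in WT.

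Part of the members also carried transcripts that T cells do not make in quantity. Of the KO members, 21 (6.98%, 4.37 to 10.5) held at least 2 UMIs of 10 macrophage and dendritic cell markers or at least 10 UMIs of the class II genes H2-Aa, H2-Ab1 and H2-Eb1, against 1 WT member (0.676%, 0.0171 to 3.71). This criterion was set after the data were seen. These barcodes held 93.6% of the class II UMIs of KO members and 96.0% of those of WT members, which the criterion itself largely sets. A fixed UMI count is also reached more easily by larger barcodes. The barcodes that met it had a median of 5552 UMIs in KO, against 2564 for other members. The single WT barcode had 22736 UMIs, against 4385 for the others. CD3 transcripts of the 21 KO barcodes were less concentrated, at 1392 CPM against 2800 CPM in the other KO members. Scrublet marked 6 of the 21, at the rate that marked 17.2% of all scored KO barcodes. The antigen-presenting criterion was also met by 7.28% of KO and 3.79% of WT memory-like CD4 barcodes.

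**Figure D3:**
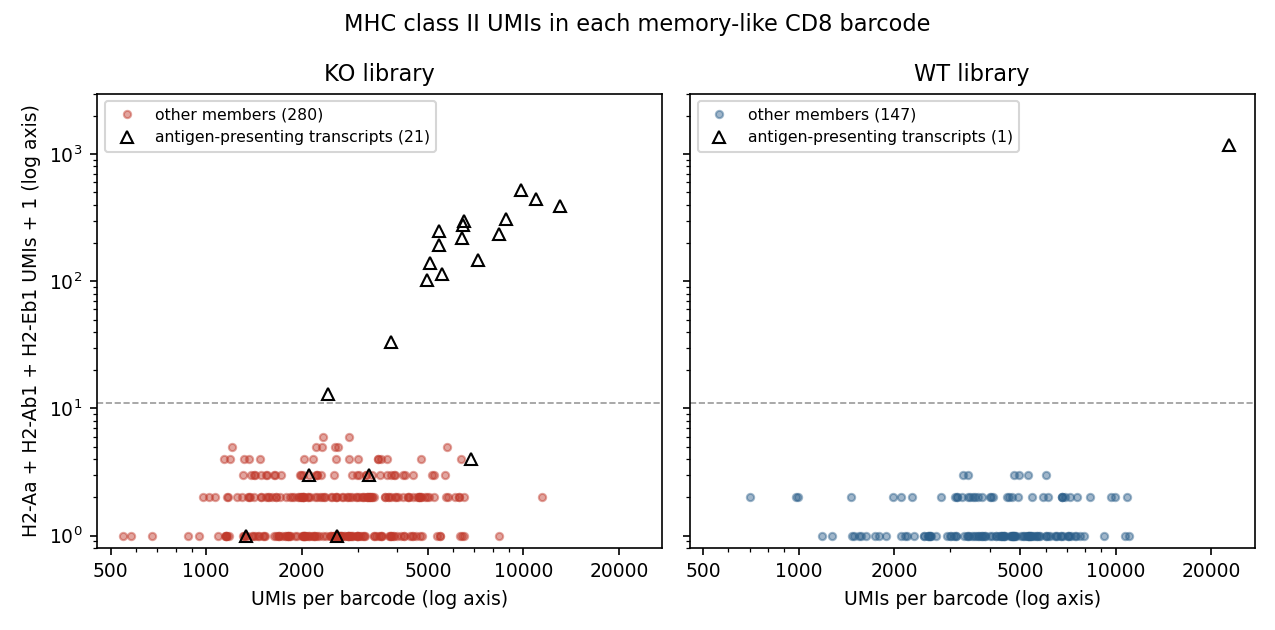
UMIs of H2-Aa, H2-Ab1 and H2-Eb1 plus 1 against total UMIs (both log axes) for each memory-like CD8 barcode of the KO library (left panel) and the WT library (right panel), with triangles for barcodes that met the antigen-presenting criterion and a dashed line at its limit of 10 class II UMIs. In KO, 16 barcodes stand on or above the line, and in WT 1 barcode does. Members that did not meet the criterion, which keeps them under 10 class II UMIs, hold at most 5 in KO and 2 in WT.

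Macrophage markers summed to 402 CPM over all KO members and 42.2 CPM over WT members, and dendritic cell markers to 198 and 96.0 CPM. A macrophage marker UMI was found in 59 KO and 2 WT members and a dendritic cell marker UMI in 14 and 1. Fcgr1 and Xcr1 were at 0 UMIs in both libraries, and Csf1r and C1qa were at 0 in WT. B-cell markers were spread more thinly over cells. The 6 B-cell genes summed to 214 CPM in KO and 40.7 CPM in WT, and 1 or 2 UMIs of the rule's 3 B-cell genes were held by 38.9% of KO and 13.5% of WT members. The limit of 2 was reached by 25 KO and 2 WT members. The NK-cell genes summed to 95.7 CPM in KO and 131 CPM in WT, of which Eomes alone held 68.5 and 91.6 CPM. Eomes is also a regulator of memory CD8 cells, and the rule limited Ncr1 and Klrb1c. The part of free RNA and of joined cells in the results below was not tested.

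Between genotypes, few genes differed by over 1.5 times beyond counting error. With 1 library a genotype, a gene was called when it reached 50 CPM in either library and the exact 95% interval of its KO to WT ratio lay wholly above 1.5 or below its inverse. Of 3168 genes tested, 28 (0.884%) were called higher and 9 (0.284%) lower in KO members. After the antigen-presenting barcodes were left out, 8 of 3155 (0.254%) were higher and 8 (0.254%) lower, and 8 and 6 of these were also called among all members. At an equal depth of 1500 UMIs, 18 were higher and 5 lower, with 14 and 1 in common with the calls at full depth. Of the 28 higher genes, 12 were also called higher in memory-like CD4 barcodes, where 0.71% of genes were called higher and 0.123% lower. In naive-like CD8 barcodes 16 of the 28 were also called, with 1.32% of genes higher and 0.27% lower there.

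Of the 28 higher genes, 6 were on the list of MHC class II presentation, 2 (Tyrobp and Fcer1g) on that of NK-type receptors, 2 (Cd79a and Cd79b, both genes of the rule) on that of B cells, and 1 each on those of macrophages (Lyz2), dendritic cells (Clec10a) and cytotoxic granules (Gzmm). Lyz2 (lysozyme) was at 362 CPM in KO and 34.9 CPM in WT, a ratio of 10.4 (6.86 to 16.4), and of its UMIs 25.2% in KO and 95.8% in WT lay in 1 barcode each. Tyrobp, the adaptor DAP12, was at 4.08, the lectin genes Mgl2 and Clec10a were at 5.42 and 4.38, and Il1b was at 2.99. Without the antigen-presenting barcodes Il1b, Mgl2 and Clec10a had no UMI in either library, while Lyz2 kept 38 UMIs in KO and 1 in WT. Lyz2 and Clec10a are markers of the criterion, which lets each remaining member hold at most 1 marker UMI, so their fall was largely set by it. Cd79a, a signalling chain of the BCR whose UMIs the rule limited in both libraries, is given as a description, at 84.8 CPM in KO and 13.1 CPM in WT. H2-Aa was at 2.31 (2.10 to 2.55) in all members and 4.35 without the antigen-presenting barcodes, and the single WT barcode then left out held 95.9% of the WT UMIs. In naive-like CD8 barcodes the KO to WT ratio of Lyz2 was 12.2 and that of H2-Aa 12.3, and in memory-like CD4 barcodes 2.29 and 1.44.

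Ecm1, which encodes an extracellular matrix protein made by some activated T cells, had 50 UMIs in KO members and 1 in WT members, a ratio of 37.4 (6.41 to 1507). Without the antigen-presenting barcodes the ratio was 32.7 (5.54 to 1325), with 49.2 CPM in KO, just under the limit of 50 CPM for a call. In CD4 cells it was at 284 CPM in KO and 156 CPM in WT. Hist1h1b, a replication-dependent histone gene, was called higher at 51.1 CPM in KO and 14.5 CPM in WT, with 66.0% of the KO UMIs in 1 barcode. Without the antigen-presenting barcodes it was at 44.1 CPM in KO, under the limit for a call, and at a ratio of 2.94 (1.42 to 6.65). The cycling genes Mki67 and Top2a had 19 and 42 UMIs in KO and 3 and 9 in WT, and 38.1% of the KO UMIs of Top2a lay in 1 barcode. Mki67 UMIs were found in 10 KO and 2 WT members.

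Among genes that the members themselves express, Gzmm was called higher. It had 159 UMIs in 92 KO members and 50 UMIs in 26 WT members, which is 173 (147 to 202) CPM in KO and 72.7 (54.0 to 95.8) CPM in WT, a ratio of 2.38 (1.72 to 3.34). Without the antigen-presenting barcodes the ratio was 2.33 (1.68 to 3.29), and at 1500 UMIs Gzmm was found in 18.0% (13.5 to 23.3) of KO and 6.43% (2.98 to 11.9) of WT members, against 0.0647% of KO and 0 of 6105 WT B-cell barcodes. In naive-like CD8 barcodes the KO to WT ratio was 1.66 (1.15 to 2.39).

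Gzmb, the granzyme that activates caspases, leaned the same way without being called, at 105 (85.6 to 129) CPM in KO and 52.3 (36.7 to 72.5) CPM in WT, a ratio of 2.02 (1.36 to 3.04). At 1500 UMIs Gzmb was found in 11.4% of KO and 10.0% of WT members. Gzmk was at 236 CPM in KO and 186 CPM in WT, a ratio of 1.27 (1.01 to 1.59), and Nkg7 was at a ratio of 1.18 (1.10 to 1.27). Of the 13 cytotoxic granule genes that averaged 50 CPM or more, 11 were higher in KO relative to the median of all genes and 1, Gzmm, was called. The median log2 ratio of the list was 0.17, and over all 2890 genes at that level the lower and upper quartiles were -0.19 and 0.17.

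**Figure D4:**
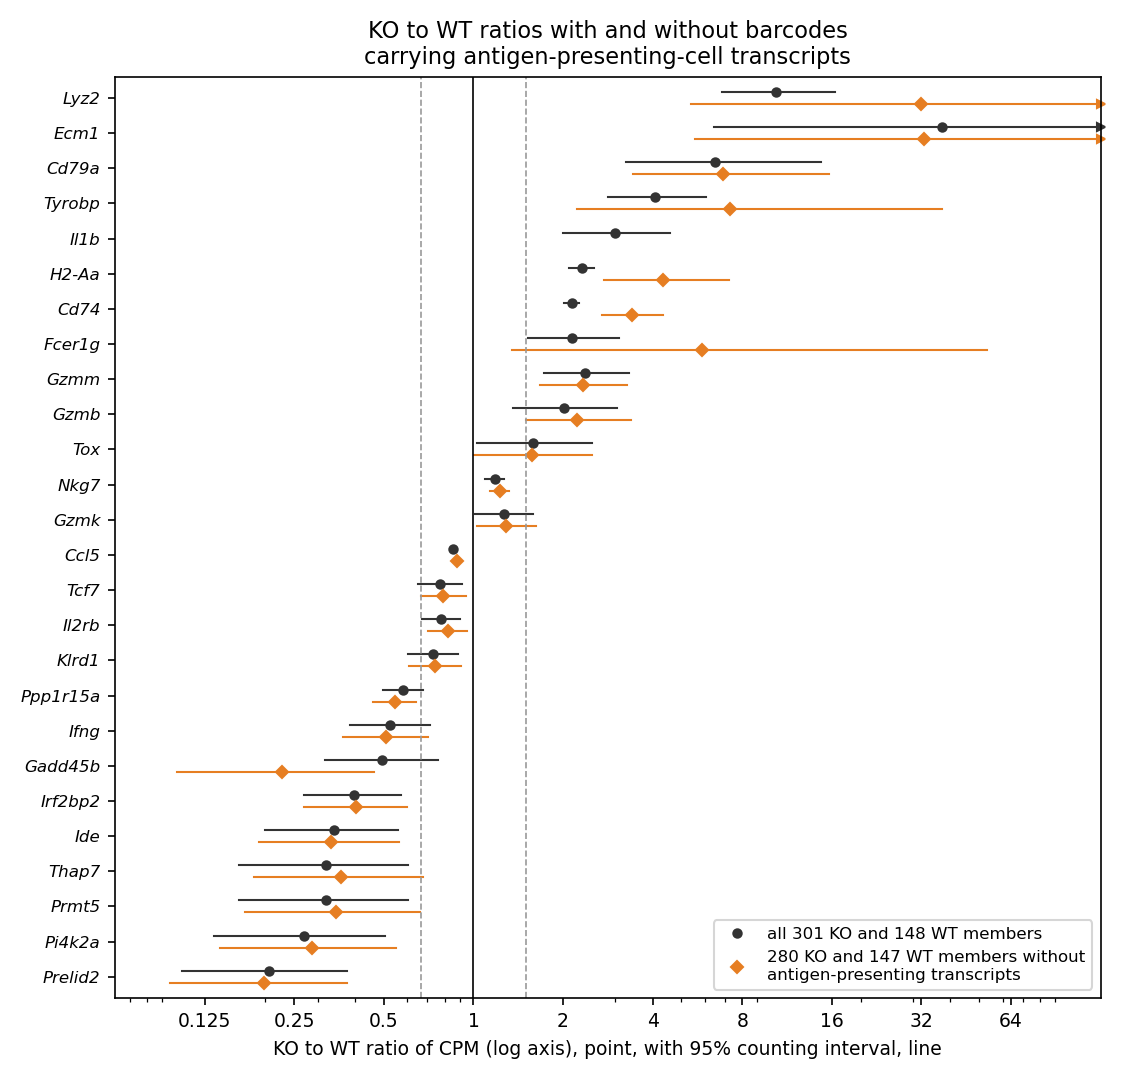
KO to WT ratio of CPM (log axis) for 26 genes in all members (black circles) and in members without antigen-presenting transcripts (orange diamonds), with exact 95% counting intervals as lines, arrows where an interval runs past the axis, a solid line at 1 and dashed lines at 1.5 and its inverse. Lyz2, Ecm1 and Cd79a stand at the top, above class II genes, Gzmm lies wholly above 1.5 in both sets, the memory genes Ccl5, Tcf7, Il2rb and Klrd1 lie between 0.731 and 0.88, and Il1b has no diamond because its UMIs were then 0 in both libraries.

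Ifng and Klrd1 were lower in KO and Tox higher, none of them past the limit for a call. Ifng, the main cytokine of activated CD8 cells, was at 79.4 (62.2 to 99.8) CPM in KO and 151 (124 to 183) CPM in WT, a ratio of 0.525 (0.384 to 0.715). It had UMIs in 52 members of each library, and at 1500 UMIs it was found in 8.63% of KO and 13.6% of WT members. In naive-like CD8 barcodes Ifng was called lower at 0.211 (0.0867 to 0.448), and in memory-like CD4 barcodes it was at 0.709 (0.568 to 0.881). Klrd1 was at 232 CPM in KO and 317 CPM in WT, a ratio of 0.731 (0.602 to 0.887), while its partner Klrc1 was at 198 and 193 CPM, a ratio of 1.02 (0.814 to 1.29). Tox, a regulator induced by lasting receptor stimulation, was at 74.0 CPM in KO and 46.5 CPM in WT, a ratio of 1.59 (1.03 to 2.50).

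The called lower genes had no common role among the lists. At an equal depth of 1500 UMIs, where fewer UMIs are counted, 5 genes were called lower. Most of the genes called lower at full depth were not among them. Prelid2, related to mitochondrial lipid transfer proteins, had 14 UMIs in 13 KO members and 51 UMIs in 44 WT members, a ratio of 0.205 (0.105 to 0.377). Pi4k2a, a lipid kinase of the Golgi and endosomes, was at 0.269 (0.135 to 0.506), and Ide, the insulin-degrading enzyme, at 0.339 (0.200 to 0.559). Prmt5, an arginine methyltransferase, and Thap7, a zinc finger repressor, were each at 15 UMIs in KO and 35 in WT, a ratio of 0.321 (0.163 to 0.603). Nudcd3, a cochaperone, was at 0.382 (0.221 to 0.646), and its log2 ratio was -1.37 at full depth but -0.40 at equal depth. The predicted gene Gm11808, outside the rule for named genes, was at 0.408. Without the antigen-presenting barcodes Thap7 was at 0.36 (0.182 to 0.676) and Nudcd3 at 0.40 (0.226 to 0.688), and neither was called. In CD4 cells the ratio of Prelid2 was 0.483 and that of Prmt5 1.0.

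Irf2bp2, a co-repressor that partners the interferon regulatory factor IRF2, had 46 UMIs in 38 KO members and 87 UMIs in 58 WT members, a ratio of 0.396 (0.271 to 0.572). It was called lower in memory-like CD4 barcodes too, at 0.347 (0.288 to 0.417), and was at 0.493 (0.320 to 0.741) in naive-like CD8 barcodes. Its log2 ratio in members stayed between -1.59 and -1.29 under the alternatives tried.

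Of the 3 lists of stress and early response genes, heat shock lay below the lower quartile of all genes, immediate-early genes lay within the quartiles and the unfolded protein response was on the other side of 0, with no gene called in any of them. Of the 11 heat shock chaperone genes that averaged 50 CPM or more, 10 were lower in KO than the median of all genes, with a list median of -0.26 log2. Dnajb1, an HSP40 cochaperone, was at 80.5 CPM in KO and 151 CPM in WT, and Hsph1, an HSP110 chaperone, at 35.9 and 66.9 CPM. Of 22 immediate-early genes 17 were lower, with a median of -0.15 that became -0.35 without the antigen-presenting barcodes. Nr4a2 and Nr4a3, nuclear receptors induced by receptor signalling, were at 63.1 and 26.1 CPM in KO and at 108 and 56.7 CPM in WT. Atf3, a stress transcription factor, was at 117 CPM in KO and 74.1 CPM in WT, with 49.0% of the WT UMIs in 1 barcode. Of 14 unfolded protein response genes 9 were higher, with a median of 0.11 that became -0.15 at 1500 UMIs. Outside these lists, Ppp1r15a (GADD34, which reverses translational arrest) and Gadd45b were called lower without the antigen-presenting barcodes, Ppp1r15a at 0.543 (0.461 to 0.639) and Gadd45b at 0.227 (0.101 to 0.465).

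Mitochondrially encoded genes were higher in 10 of 11, with a median of 0.19 and none called, for example mt-Nd2 at 830 CPM in KO and 670 CPM in WT. The median mitochondrial share per member was 1.61% in KO and 1.32% in WT. The virtual memory list, genes of memory cells that arise without known antigen, had a median of -0.18 with 9 of 13 genes lower, the tissue residency list -0.09 with 6 of 7 lower and the naive and central memory list -0.11 with 9 of 12 lower, which became 6 of 12 without the antigen-presenting barcodes. Of 4 effector cytokine and chemokine genes 3 were lower, with a median of -0.28, below the lower quartile of all genes. Nuclear oxidative phosphorylation (-0.05, 42 genes), glycolysis (0.04, 10 genes), ribosomal protein (-0.04, 49 genes), T-cell receptor signalling (-0.06, 21 genes) and PI3K-AKT-FOXO genes (-0.09, 15 genes) lay nearer 0. None of the genes in these last 5 lists was called. All 8 MHC class II presentation genes at that level were higher in KO and 6 were called, with a median of 1.16. The NK-type receptor list had 5 of 7 genes higher and 2 called, the adaptor genes Tyrobp and Fcer1g that myeloid cells also use, with a median of 0.32 that became -0.0721 with a limit of 10 CPM.

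T-cell receptor V genes described how varied the members were. A beta V transcript was found in 90.0% of KO and 92.6% of WT members, against 1.08% and 0.528% of B-cell barcodes. A single leading beta V gene could be given to 256 KO and 134 WT members, which used 22 and 19 of the 35 beta V genes in the files. The 3 most frequent genes together made up 32.0% of assigned members in KO and 32.8% in WT. In naive-like CD8 barcodes they made up 28.6% and 29.7%. No receptor sequence across the joining region was analysed here, so cells with the same V gene cannot be called a clone.

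Trbv3 was given to 12.1% (8.38 to 16.7) of KO and 11.2% (6.40 to 17.8) of WT members, against 6.12% (2.84 to 11.3) and 6.52% (3.03 to 12.02) of naive-like CD8 barcodes and 11.97% and 9.22% of memory-like CD4 barcodes. Trbv19 was given to 7.03% (4.22 to 10.9) of KO and 14.2% (8.76 to 21.3) of WT members, and Trbv13-3 to 10.2% (6.74 to 14.5) and 5.22% (2.13 to 10.5). The intervals of the libraries overlapped for each of these genes. The most frequent pairing of an alpha and a beta V gene was Trav6-7-dv9 with Trbv3 in 6 of the 117 KO members with both chains. In WT, Trav7-5 with Trbv3 and Trav1 with Trbv13-3 were each found in 4 of 74 members. Trav1 is the alpha V gene of mucosal-associated invariant T cells, whose regulator is Zbtb16 (PLZF), and it was given to 2 KO members, none with a UMI of Zbtb16, and to 6 WT members, 3 of which had one.

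**Figure D5:**
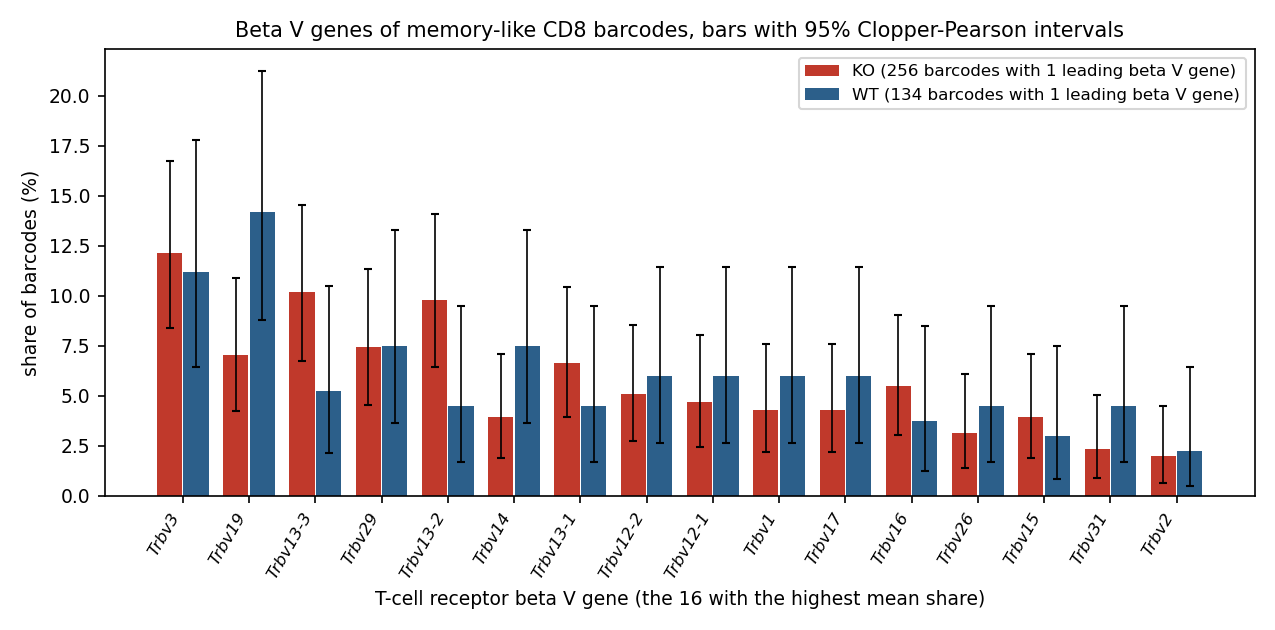
Share of memory-like CD8 barcodes (percent) given to each of the 16 beta V genes with the highest mean share, KO bars left of WT bars, with exact 95% binomial intervals as lines, out of 256 KO and 134 WT barcodes. No beta V gene exceeds 14.2% in either library, and the intervals of the libraries overlap for the genes shown.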

How the data were processed

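Per the file headers, the deposited matrices hold unnormalised UMI counts per gene and barcode, from Cell Ranger 6.1.2. Version 6.0.1 of that program, Seurat 4.3.0 and mm39 stand in the submitters' processing notes. Version and annotation are therefore uncertain and coordinates are omitted. A 3' kit stands in the labels, yet receptor V segments were abundant, so the transcript end that was read is uncertain. The knocked-out gene and some other genes are not reported here.

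From these deposited counts, members were chosen by the stated rule, and UMIs were summed per library (Python 3.11.15, numpy 2.4.6, scipy 1.17.1). CPM have exact Poisson intervals, ratios exact conditional binomial intervals, and shares Clopper-Pearson intervals, at 95%. For share ratios a normal approximation of the log ratio was used. With 1 library per genotype there is no test, p-value or replicate check. A share of 0 is given the limit of 3 counts. Log2 ratios add 0.5 UMIs, and list medians are relative to all genes averaging 50 CPM.

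Named genes were 58 fixed genes, the 12 highest and lowest called ratios, up to 4 members of each of 31 lists with the largest ratios, the 10 highest and 5 lowest genes against other T cells, and the 3 leading beta V genes of each library. Receptor, ribosomal, mitochondrial and predicted genes and the genes of the rule were left out of the ranking. Doublets were scored with Scrublet (scanpy 1.11.5), and the highest scores, up to 0.8% per 1000 barcodes, were removed as an alternative, since the automatic threshold marked 0 WT barcodes and had not worked. The interval method was tried on simulated Poisson counts, the model that the intervals assume. Those counts held no clustering of UMIs within barcodes, so the intervals of genes with uneven UMIs were not tested. The members, lists, rules and splits were chosen with earlier results of these data known.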

Additional observations from a re-analysis of the deposited data

How the results depend on the processing

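No paired analysis was possible because each genotype had 1 library. Each count or share under each alternative setting was taken as 1 comparison with the value reported. In 55 comparisons it kept within 1.5 times, or within the counting interval of the value reported, and in 9 it moved beyond that. Genes called higher in KO numbered 28, against 8 without antigen-presenting transcripts, 15 without high Scrublet scores, 18 at 1500 UMIs and 76 with a limit of 10 CPM. Genes called lower numbered 9, against 5 at 1500 UMIs and 25 with a limit of 10 CPM. With no naive UMI allowed, the KO to WT ratio of the member share was 1.15 of kept barcodes and 1.5 of CD3 barcodes, and genes lower than in naive-like CD8 barcodes numbered 6. List medians stayed close to the value reported in 252 comparisons and moved further in 29. Those that were not near 0 changed sign 5 times. Inhibitory receptors went to -0.16 with no naive UMI and -0.18 with a limit of 10 CPM. Naive and central memory went to 0.038 and unfolded protein response to -0.15 at 1500 UMIs. NK-type receptors went to -0.0721 with a limit of 10 CPM. The cause of these shifts was not tested. For named genes, 2014 comparisons kept within the counting interval of the value reported and 130 moved beyond it. None of the called named genes changed direction under the alternatives run. The lack of a second library per genotype limits every difference between KO and WT, and the lower depth of the KO library limits the detection of rare transcripts. Leaving out antigen-presenting barcodes or the barcode with most UMIs of a gene was chosen after seeing the data.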
